A study of Rattus norvegicus with 6 samples.

Results

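The transcripts of 39 genes of the autophagy machinery were examined, a list of genes grouped by function that was chosen with earlier results of these data known: the initiation complex, the class III PI3-kinase complexes, membrane supply and lipid effectors, the conjugation machinery, the ATG8 family, cargo receptors and nuclear regulators. A gene was measured where at least 1 probe set (the group of probes summarised as 1 value) carried its symbol alone, and the probe set with the highest mean over all arrays stood for it. This left 32 of the 39 genes, out of 14506 named genes on the array. Ambra1 and Atg2a were annotated only on probe sets that carried several gene symbols and were not used, and Atg101, Atg2b, Atg4d, Tp53inp2 and Tfe3 were not analysed here.

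Autophagy is the route by which a cell wraps cytoplasm, protein aggregates or organelles in a double membrane, the autophagosome, and delivers them to the lysosome for breakdown. A kinase complex around ULK1 starts the process, a lipid kinase complex around VPS34 (Pik3c3) marks the forming membrane with phosphatidylinositol 3-phosphate, ATG9 vesicles and ATG2 supply lipid, and ubiquitin-like conjugation attaches proteins of the ATG8 family (the LC3 and GABARAP proteins) to the membrane, where they bind cargo receptors. The growth-factor- and nutrient-responsive kinase mTORC1 restrains ULK1 and the transcription factors TFEB and TFE3, and FOXO factors are further known transcriptional regulators of autophagy genes. Most steps are controlled on proteins, which transcript arrays do not measure.

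All cells were RBL-2H3, a rat basophilic leukaemia line used as a mast cell model, stably overexpressing Dectin-1 WT, the receptor for fungal beta-glucans that signals through the kinase Syk. The first group was pretreated with the Syk inhibitor R406 and then stimulated with curdlan, a particulate beta-glucan (2 arrays). The second received curdlan alone (2 arrays), and the third, the control, was not stimulated (2 arrays). The sources used here give neither doses nor times, and they leave unsaid whether replicate arrays stand for separate cultures. The probe set of Clec7a, the rat Dectin-1 gene, read between 6.94 and 7.23 on the 6 arrays. Its mean of 7.14 lay just below 7.222, the median of the probe set means. The arrays by themselves therefore do not show the overexpression that the labels state, and parental cells were not analysed here. None of the 6 arrays holds cells given R406 without curdlan. The comparison of R406 plus curdlan with curdlan therefore cannot tell a reversed curdlan response apart from an effect of R406 on its own.

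Values are log2 signals as the authors normalized them, with array medians between 7.204 and 7.241. Probes differ in brightness, so signals of different probe sets are not compared gene by gene. Changes are differences of group means ± standard error (SE) from 1 limma model of all 29214 probe sets and 6 arrays, and a gene is said to rise, fall or be called where the Benjamini-Hochberg adjusted p was under 0.05. As a rough description of the labelled cell type, which carries the same limit, all 8 mast cell markers, among them Fcer1a and Kit, lay between the 88.8th and the 99.2nd percentile of signals. The 4 T cell markers lay between the 9.1st and the 27.2nd percentile, the 1 measured B cell marker at the 12.3rd, the 4 macrophage markers between the 17.2nd and the 59.9th, the 4 epithelial markers between the 4.4th and the 53.3rd, and the 4 fibroblast markers between the 25.4th and the 70.5th, 3 of these above the median. None of these markers was called in any comparison (limma). Of the 32 autophagy genes, 30 had a signal above the median probe set, Atg10 and Optn being below it.

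With R406 plus curdlan against curdlan alone, 13 of the 32 autophagy genes rose and 1, Atg16l1, fell, which is 43.8% called (limma, Benjamini-Hochberg). In the same comparison 7.25% of all probe sets were called, 4.02% higher and 3.23% lower. Among the 8114 named genes above the median signal, a closer match for this well-expressed list, 15.4% were called, 8.75% higher and 6.61% lower. Since the list was not chosen blind to these results, the gap between it and the other genes is a description and not independent evidence. The risers were the initiation genes Ulk1, Ulk2 and Rb1cc1, the lipid kinase subunit gene Atg14, the membrane genes Atg9a, Wipi1, Wipi2 and Wdr45, the conjugation genes Atg4c and Atg12, the cargo receptor genes Sqstm1 and Nbr1, and Tp53inp1. Their changes were modest, between 0.29 for Tp53inp1 (1.22-fold) and 0.83 for Atg14 (1.77-fold). The median change of the 32 genes was 0.19 log2 units, against -0.00195 over all probe sets and 0.0289 over named genes above the median signal. Of the 32 changes 30 were above 0, and the share of other genes with a change above 0 was not counted.

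**Figure D1:**
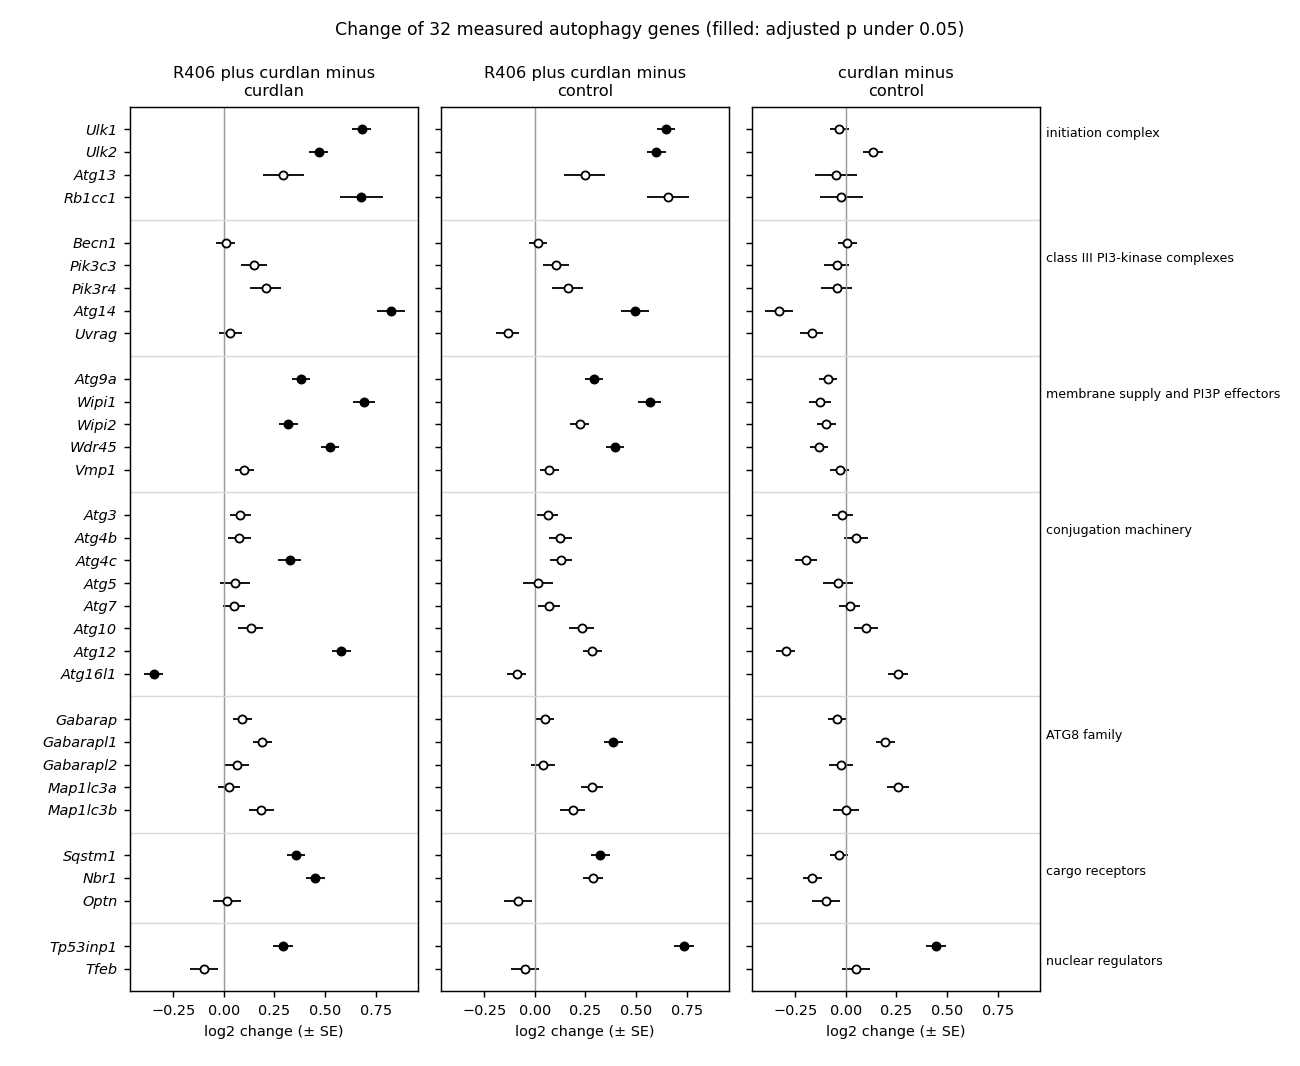
Log2 change (horizontal axis) with its standard error for each of the 32 measured autophagy genes, grouped by role, in the 3 comparisons, with 2 arrays per group. Filled points passed an adjusted p under 0.05: 13 higher and 1 lower with R406 plus curdlan against curdlan, 9 higher with R406 plus curdlan against control, and 1 higher with curdlan against control.

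Against unstimulated control cells, R406 plus curdlan raised 9 of the 32 genes and lowered 0 (28.1% called, limma, Benjamini-Hochberg), where 2.23% of all probe sets were called, 1.44% higher and 0.791% lower, and where 5.09% of named genes above the median signal were called, 3.32% higher and 1.77% lower. Without adjustment, 16 genes had p under 0.05 (limma), all of them higher. The share of all probe sets at an unadjusted p under 0.05 was not counted. Counts of genes at that threshold, here and below, therefore have no background and are not read as results about the members. The 9 were Ulk1, Ulk2, Atg14, Atg9a, Wipi1, Wdr45, Gabarapl1, Sqstm1 and Tp53inp1, and 8 of them are also among the 13 genes higher than with curdlan alone. These comparisons share the R406 plus curdlan arrays. The median change of the 32 genes was 0.20, against -0.0101 over all probe sets. For 23 of the 32 genes both R406 plus curdlan arrays lay above all 4 other arrays, an arrangement seen for 16.5% of all probe sets and 29.1% of named genes above the median signal.

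With curdlan alone against control, 1 of the 32 genes was called, Tp53inp1, which rose (limma, Benjamini-Hochberg). That is 3.12%, where 1.59% of all probe sets were called, 1.04% higher and 0.551% lower, and where 3.64% of named genes above the median signal were called, 2.39% higher and 1.24% lower. With a variance trend over signal in the fit, 7 of the 32 genes (21.9%) were called against 5.33% of all probe sets, and in a fit of named probe sets 3 of the 32 (9.38%) against 4.36%. The other 31 genes had changes between -0.33 and 0.26 (adjusted p between 0.0642 and 0.995). Without adjustment 11 genes had p under 0.05 (limma), 5 higher and 6 lower, again with no share of all probe sets to set beside them.

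**Figure D2:**
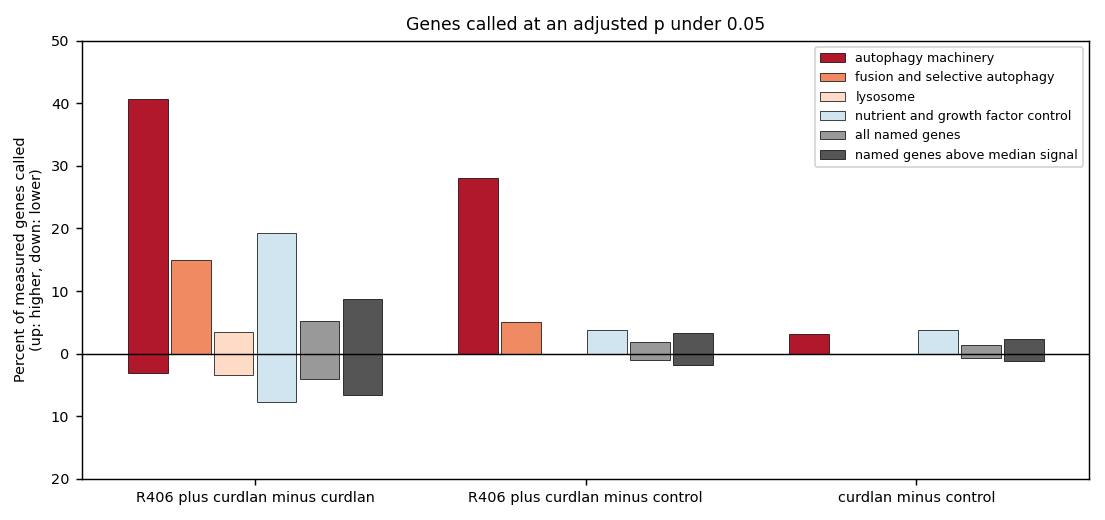
Percent of measured genes called higher (up) or lower (down) at an adjusted p under 0.05, for the 32 autophagy genes, 3 related lists of 20, 29 and 26 genes, all 14506 named genes and the 8114 named genes above the median signal. The share of autophagy genes called higher was 40.6% with R406 plus curdlan against curdlan, 28.1% against control, and 3.12% with curdlan against control.

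The number of arrays limited these calls. Without either control array, 10 of the 32 genes were called with R406 plus curdlan against curdlan. The count was 5 without either curdlan array, 2 without the first R406 plus curdlan array (replicate 1) and 1 without the other (replicate 2), each fit having 2 residual degrees of freedom. Calls over all probe sets shrank alongside, to 1232 in place of 2118 without either control array, to 532 or 599 when 1 of the curdlan arrays was left out, and to 231 or 210 when 1 of the R406 plus curdlan arrays was. Atg14 was the 1 member that passed in all 6 of these fits, Ulk1 passed in 5, and Rb1cc1, Wipi2, Atg4c and Tp53inp1 passed in none. Every called change kept its sign in each of the fits. That outcome was fixed in advance, since the arrays of the compared groups did not overlap for any called gene. The change of Rb1cc1 against curdlan lay between 0.56 and 0.80 over these fits, and that of Ulk1 between 0.66 and 0.70. Against control, none of the 9 calls held in every one of these fits. Calls over all probe sets shrank in that comparison as well. Whether these genes lost their calls more often than other genes was not tested. The change of Ulk1 against control lay between 0.63 and 0.67 over the fits, and that of Atg14 between 0.43 and 0.57.

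Promoter sequences of the measured members, called or not, were searched for letters bound by the known transcriptional regulators of the pathway. RefSeq windows from 250 bases before to 50 bases after a gene's start (assembly GRCr8) existed for 27 of the 32 measured genes, including 10 of the 13 risers. The searched motifs were TCACGTG, the core bound by TFEB and TFE3, CACGTG, the shorter E-box inside it, and GTAAACA, bound by FOXO factors, each on both strands. TCACGTG occurred in the windows of 2 of the 27 genes, Atg14 and Atg3, and in 3.2% of all 33469 windows. CACGTG occurred in 3 of the 27 genes, the same 2 and Atg5, and in 6.42% of all windows. GTAAACA occurred in 1, Wdr45, and in 3.78% of all windows. A gene was counted where any of its windows held the motif, while the percentages are over single windows. The gene counts and the percentages are therefore in unlike units. The stretches around the matches are shown, with the motif letters in capitals, each 5′ to 3′ on the strand of the gene. Ulk1, with no match of any of the 3, is shown in lower case for comparison.
Atg14, chr15:23306791-23306869, minus strand: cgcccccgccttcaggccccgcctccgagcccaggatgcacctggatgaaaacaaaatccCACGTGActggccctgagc
Atg3, chr11:69159256-69159380, minus strand: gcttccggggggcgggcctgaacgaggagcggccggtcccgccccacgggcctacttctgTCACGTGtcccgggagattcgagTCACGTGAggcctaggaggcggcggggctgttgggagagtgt
Wdr45, chrX:17454141-17454267, minus strand: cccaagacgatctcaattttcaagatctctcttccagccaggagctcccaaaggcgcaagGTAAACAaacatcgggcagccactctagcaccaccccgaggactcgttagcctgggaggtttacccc
Ulk1, chr12:51511372-51511491, plus strand: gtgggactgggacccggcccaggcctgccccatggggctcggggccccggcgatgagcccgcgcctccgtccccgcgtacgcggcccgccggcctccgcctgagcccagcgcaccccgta

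In Atg14 the match began at position 7, counted from 1 at the start, and in Atg3 matches began at positions -40 and -17. The Wdr45 match shown began at position -90 of its upstream annotated start, and its other annotated start had a match at position 15. Atg14, with 1 match, had a change of 0.83 with R406 plus curdlan against curdlan, and Atg3, with matches at 2 places of its window, had a change of 0.08 ± 0.0525 (limma, adjusted p = 0.446). Of the 10 risers with a window, 1 held TCACGTG and 1 held GTAAACA. These are matches of letters in a short window and not measured binding sites.

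The roles hold few genes each, so their counts describe single genes more than roles. The shares of all probe sets called were 7.25% with R406 plus curdlan against curdlan, 2.23% against control and 1.59% with curdlan against control. In the initiation complex, 3 of 4 measured genes rose with R406 plus curdlan against curdlan and 2 against control, while 0 were called with curdlan against control (limma, 1 with an unadjusted p under 0.05). Ulk1, which encodes the kinase that starts autophagosome formation (probe set 10759248), had signals of 9.71 and 9.76 in R406 plus curdlan arrays, 9.06 and 9.05 in curdlan arrays, and 9.11 and 9.07 in control arrays. The R406 plus curdlan arrays stood clear of the other 4, which lay close together. The change was 0.68 ± 0.0468 against curdlan, a 1.60-fold difference (limma, adjusted p = 0.00357, and 0.0524 without R406 plus curdlan replicate 2), and 0.65 ± 0.0468 against control (adjusted p = 0.0107). Its paralog Ulk2 had signals of 10.10 and 10.12 with R406 plus curdlan, 9.64 and 9.64 with curdlan, and 9.55 and 9.47 in control arrays, so that the 3 groups did not overlap. It rose by 0.47 ± 0.0485 against curdlan (adjusted p = 0.00956) and by 0.60 ± 0.0485 against control (adjusted p = 0.0127), and the change of 0.13 ± 0.0485 with curdlan against control did not pass (adjusted p = 0.314).

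Rb1cc1 encodes FIP200, the scaffold of the ULK complex. Its probe set 10875183 read 10.14 and 10.33 with R406 plus curdlan, 9.44 and 9.68 with curdlan, and 9.55 and 9.61 in control arrays. The curdlan pair was spread widely enough to enclose the control pair, and both R406 plus curdlan arrays exceeded them. The change of 0.68 ± 0.106 against curdlan passed (adjusted p = 0.0273), and that of 0.66 ± 0.106 against control did not (adjusted p = 0.0539). A dimmer probe set with the same annotated transcript (10875208) gave a change of -0.03 ± 0.0805 against curdlan (adjusted p = 0.88), so the rise rests on 1 of 2 probe sets, and the mean of both gave 0.33 with an adjusted p = 0.101. Atg13, the regulatory subunit that links ULK1 to the scaffold, read 9.07 and 9.20 with R406 plus curdlan, 8.83 and 8.85 with curdlan, and 8.76 and 9.02 in control arrays, and its change of 0.29 ± 0.102 against curdlan did not pass (adjusted p = 0.181).

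**Figure D3:**
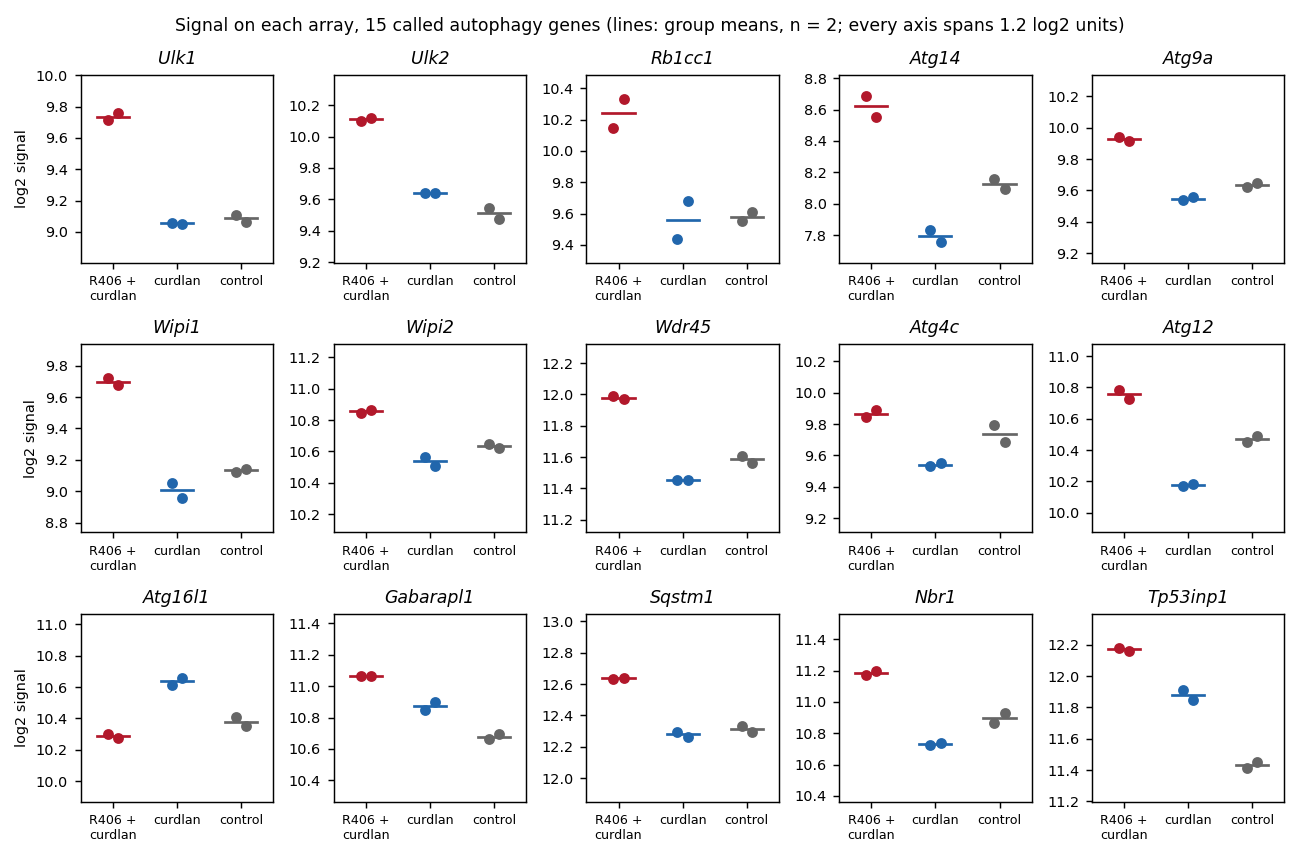
Log2 signal (vertical axis, spanning 1.2 log2 units in every panel) on each of the 6 arrays for the 15 autophagy genes called in at least 1 comparison, with lines at group means (n = 2). In 14 of the 15 genes both R406 plus curdlan arrays lie above the curdlan and control arrays, and Atg16l1 is the exception, with its curdlan arrays on top. The genes were picked for being called, which favours this order. It was seen for 16.5% of all probe sets and 29.1% of named genes above the median signal.

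Among the class III PI3-kinase genes, 1 of 5 was called with R406 plus curdlan against curdlan. That is 20%, near the 15.4% of named genes above the median signal. Atg14, the subunit that directs the lipid kinase to sites of autophagosome formation (probe set 10782971), read 8.69 and 8.55 with R406 plus curdlan, 7.83 and 7.76 with curdlan, and 8.16 and 8.09 in control arrays. The 3 groups were fully separated, with the curdlan arrays lowest and the control arrays in between. Atg14 rose by 0.83 ± 0.0679 against curdlan (limma, adjusted p = 0.00566) and by 0.50 ± 0.0679 against control (adjusted p = 0.0395). The adjusted p of the change against control was between 0.0809 and 0.188 when any 1 array was left out. With curdlan against control its change was -0.33 ± 0.0679 (adjusted p = 0.108). The subunits that ATG14 joins gave no call. Becn1, the Beclin 1 gene, read 10.43 and 10.41 with R406 plus curdlan, 10.39 and 10.44 with curdlan, and 10.40 and 10.41 in control arrays, all within the range of the curdlan pair. Pik3c3, the catalytic subunit, and Pik3r4, its regulatory kinase-like partner, had changes of 0.15 ± 0.0638 and 0.21 ± 0.0766 against curdlan (adjusted p = 0.256 and 0.203). Uvrag, which takes the place of ATG14 in the complex that acts on endosomes and late steps, had a change of 0.03 ± 0.0569 (adjusted p = 0.797), beside the 0.83 of Atg14. The difference between Atg14 and Uvrag was not itself tested.

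Of the 5 measured genes for membrane supply and for effectors of phosphatidylinositol 3-phosphate, 4 rose with R406 plus curdlan against curdlan and 3 against control. Wipi1, a lipid-binding effector (probe set 10739313), read 9.72 and 9.68 with R406 plus curdlan, 9.05 and 8.96 with curdlan, and 9.12 and 9.14 in control arrays. It rose by 0.69 ± 0.0546 against curdlan (1.62-fold, limma, adjusted p = 0.00522) and by 0.57 ± 0.0546 against control (adjusted p = 0.0184). Its relative Wipi2, which recruits ATG16L1, moved less, at 10.85 and 10.86 with R406 plus curdlan, 10.57 and 10.51 with curdlan, and 10.65 and 10.62 in control arrays. Its change was 0.32 ± 0.0473 against curdlan (adjusted p = 0.024, and between 0.0562 and 0.166 without any 1 array) and 0.22 ± 0.0473 against control (adjusted p = 0.091).

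Wdr45 encodes WIPI4, the family member that binds ATG2. It read 11.99 and 11.97 with R406 plus curdlan, 11.45 and 11.45 with curdlan, and 11.61 and 11.57 in control arrays (probe set 10937064). The pairs were tight and the groups separate, with changes of 0.53 ± 0.0447 against curdlan (limma, adjusted p = 0.00607) and 0.39 ± 0.0447 against control (adjusted p = 0.0266). Atg9a, the lipid scramblase of the vesicles that seed the membrane, read 9.94 and 9.91 with R406 plus curdlan, 9.54 and 9.56 with curdlan, and 9.62 and 9.65 in control arrays. It rose by 0.38 ± 0.0446 against curdlan (adjusted p = 0.0128) and by 0.29 ± 0.0446 against control, just inside the threshold (adjusted p = 0.0493). Vmp1, an endoplasmic reticulum scramblase, had a change of 0.10 ± 0.047 against curdlan (adjusted p = 0.293), and a second, much dimmer probe set gave -0.20 ± 0.0665 (adjusted p = 0.162).

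**Figure D4:**
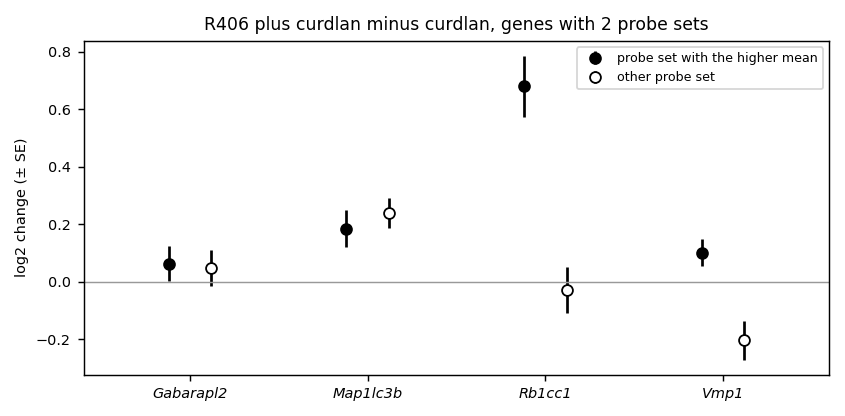
Log2 change ± standard error with R406 plus curdlan against curdlan for the 4 autophagy genes measured by 2 probe sets, the probe set with the higher mean (filled) beside the other (open). The pairs for Gabarapl2 and Map1lc3b lie close together, while those for Rb1cc1 (0.68 and -0.03) and Vmp1 (0.10 and -0.20) do not.

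The conjugation machinery was divided: of 8 measured genes 2 rose, 1 fell and 5 were not called with R406 plus curdlan against curdlan, and 0 were called against control (limma, 2 with an unadjusted p under 0.05). Atg12, the ubiquitin-like protein that is joined to ATG5 (probe set 10804405), read 10.78 and 10.73 with R406 plus curdlan, 10.17 and 10.18 with curdlan, and 10.45 and 10.49 in control arrays. Like Atg14, it was lowest with curdlan, highest with R406 plus curdlan, and had no overlap between groups. It rose by 0.58 ± 0.0476 against curdlan (limma, adjusted p = 0.00566), and its changes of 0.28 ± 0.0476 against control (adjusted p = 0.0582) and -0.30 ± 0.0476 with curdlan against control (adjusted p = 0.0642) stayed just outside the threshold.

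Atg16l1, whose product gives the ATG12–ATG5 conjugate its site on the membrane (probe set 10925091), ran the other way. It read 10.30 and 10.28 with R406 plus curdlan, 10.61 and 10.66 with curdlan, and 10.41 and 10.35 in control arrays. The curdlan arrays were the highest and the R406 plus curdlan arrays the lowest, and the gene fell by 0.35 ± 0.0485 against curdlan (limma, adjusted p = 0.0208). This fall passed in 2 of the 6 fits that left out 1 array (adjusted p between 0.0466 and 0.151) and did not pass with the replicate number as a block (adjusted p = 0.0558). Its change with curdlan against control was 0.26 ± 0.0485 (adjusted p = 0.0928). Atg4c, 1 of the proteases that process ATG8 proteins, read 9.84 and 9.89 with R406 plus curdlan, 9.53 and 9.55 with curdlan, and 9.79 and 9.69 in control arrays, and rose by 0.33 ± 0.056 against curdlan (adjusted p = 0.0349, and between 0.0507 and 0.201 without any 1 array). Its R406 plus curdlan arrays were only slightly above control, at a change of 0.13 ± 0.056 (adjusted p = 0.282). The remaining enzymes, the E1-like Atg7, the E2-like Atg3 and Atg10 and the protease Atg4b, together with Atg5, had changes between 0.05 and 0.13 against curdlan, with adjusted p between 0.288 and 0.732.

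In the ATG8 family, the proteins that coat the autophagosome, 0 of 5 genes were called with R406 plus curdlan against curdlan (changes between 0.02 and 0.19, 2 with unadjusted p under 0.05). Gabarapl1 was called against control. Its signals were 11.07 and 11.06 with R406 plus curdlan, 10.85 and 10.90 with curdlan, and 10.66 and 10.70 in control arrays (probe set 10859142), 3 separate steps. It rose by 0.39 ± 0.0465 against control (limma, adjusted p = 0.0297, and between 0.0698 and 0.22 without any 1 array). The step with curdlan against control was 0.20 ± 0.0465 (adjusted p = 0.149) and the step with R406 plus curdlan against curdlan was 0.19 ± 0.0465 (adjusted p = 0.0842). Map1lc3a, an LC3 gene, read 8.74 and 8.79 with R406 plus curdlan, 8.71 and 8.77 with curdlan, and 8.52 and 8.45 in control arrays. Both stimulated groups overlapped each other above the control, but the changes of 0.28 ± 0.0539 with R406 plus curdlan (adjusted p = 0.075) and 0.26 ± 0.0539 with curdlan (adjusted p = 0.115) did not pass.

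Map1lc3b encodes LC3B, the usual marker of autophagosomes. Its probe set with the higher mean (10792602) had a change of 0.19 ± 0.0632 against curdlan (limma, adjusted p = 0.176), and the probe set annotated to its RefSeq transcript (10808440) had 0.24 ± 0.0522 (adjusted p = 0.0654). Gabarap and Gabarapl2 had changes of 0.09 ± 0.0466 and 0.06 ± 0.0605 (adjusted p = 0.336 and 0.612). Members of this family resemble each other in sequence and some have processed copies in mammalian genomes, so probes shared between them could blur their differences. This was not tested.

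Cargo receptors tie ubiquitinated material to the ATG8 proteins, and 2 of 3 rose with R406 plus curdlan against curdlan. Sqstm1, the gene of p62 (probe set 10742388), read 12.63 and 12.64 with R406 plus curdlan, 12.30 and 12.26 with curdlan, and 12.33 and 12.29 in control arrays. Curdlan and control arrays overlapped and the R406 plus curdlan arrays stood above them, with changes of 0.36 ± 0.0451 against curdlan (limma, adjusted p = 0.0158) and 0.32 ± 0.0451 against control (adjusted p = 0.0398). Nbr1, a related receptor (probe set 10738430), read 11.17 and 11.20 with R406 plus curdlan, 10.73 and 10.74 with curdlan, and 10.87 and 10.93 in control arrays. It rose by 0.45 ± 0.0475 against curdlan (adjusted p = 0.00982), and its change of 0.29 ± 0.0475 against control did not pass (adjusted p = 0.0563). Optn, the optineurin gene, had signals between 6.26 and 6.47 on all 6 arrays, below the median probe set, and a change of 0.01 ± 0.0697 (adjusted p = 0.935).

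Tp53inp1, a stress-induced nuclear protein that moves to autophagosomes and binds ATG8 proteins, was the 1 member called in all 3 comparisons. It read 12.18 and 12.16 with R406 plus curdlan, 11.91 and 11.85 with curdlan, and 11.42 and 11.45 in control arrays (probe set 10867609). The groups formed 3 separate steps. It rose by 0.45 ± 0.0488 with curdlan against control (limma, adjusted p = 0.0294), by 0.29 ± 0.0488 with R406 plus curdlan against curdlan (adjusted p = 0.0328), and by 0.74 ± 0.0488 with R406 plus curdlan against control (1.67-fold, adjusted p = 0.00898). Without any 1 array the adjusted p was between 0.115 and 0.159 for the first, 0.0684 and 0.18 for the second, and 0.0359 and 0.124 for the third of these changes. Tfeb, the transcription factor of lysosomal and autophagy genes, had overlapping groups and a change of -0.10 ± 0.0689 with R406 plus curdlan against curdlan (adjusted p = 0.477).

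Related genes outside the core machinery were examined in the same fit. Of 20 measured genes of autophagosome fusion and selective autophagy, 3 rose and 0 fell with R406 plus curdlan against curdlan with a median change of 0.10. The 15% called is close to the 15.4% of named genes above the median signal, where all 20 lie, and 7.25% of all probe sets were called. They were Calcoco1, a cargo receptor gene for endoplasmic reticulum autophagy, at 0.72 ± 0.0718 (limma, adjusted p = 0.00881), Plekhm1, an adaptor for fusion with lysosomes, at 0.34 ± 0.0467 (adjusted p = 0.0203), and the mitophagy receptor gene Fundc1 at 0.25 ± 0.0452 (adjusted p = 0.0412). Calcoco1 also rose against control, by 0.85 ± 0.0718 (adjusted p = 0.0143). Of 29 lysosomal genes 1 rose, the chloride transporter gene Clcn7 at 0.48 ± 0.0699 (adjusted p = 0.023), and 1 fell, the sialidase gene Neu1 at -0.28 ± 0.05 (adjusted p = 0.0374), which is 6.9% called. This compares with 7.25% of all probe sets and with 15.4% of named genes above the median signal, where 27 of the 29 lie, and 0 lysosomal genes were called against control (5 with unadjusted p under 0.05). The lysosomal median change of 0.10 against curdlan lay below the 0.19 of the autophagy genes.

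Of 26 genes of nutrient and growth factor control, 5 rose and 2 fell with R406 plus curdlan against curdlan with a median change of 0.02. The 26.9% called compares with 7.25% of all probe sets and with 15.4% of named genes above the median signal, where 24 of the 26 lie. Flcn, the folliculin gene, whose product controls mTORC1 and TFEB at the lysosome, read 10.75 and 10.78 with R406 plus curdlan, 9.82 and 9.93 with curdlan, and 10.25 and 10.31 in control arrays, in the same order as Atg14 and Atg12. It rose by 0.89 ± 0.0592 against curdlan (limma, adjusted p = 0.00332) and by 0.49 ± 0.0592 against control (adjusted p = 0.0298). Mtor itself had a change of 0.01 ± 0.0553 against curdlan (adjusted p = 0.972). The mTORC1 inhibitor gene Tsc1 rose by 0.31 ± 0.0442 (adjusted p = 0.0225). The genes of the 2 beta subunits of the energy-sensing kinase AMPK went opposite ways, Prkab1 at 0.31 ± 0.0502 (adjusted p = 0.0317) and Prkab2 at -0.31 ± 0.0577 (adjusted p = 0.0423).

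The FOXO genes in that list also went opposite ways. Foxo3 read 10.85 and 10.88 with R406 plus curdlan, 10.20 and 10.29 with curdlan, and 10.74 and 10.98 in control arrays, and rose by 0.62 ± 0.0922 against curdlan (limma, adjusted p = 0.0245). Foxo1 read 10.17 and 10.14 with R406 plus curdlan, 10.92 and 10.95 with curdlan, and 10.25 and 10.35 in control arrays. It rose by 0.64 ± 0.0543 with curdlan against control (adjusted p = 0.0163) and fell by 0.78 ± 0.0543 with R406 plus curdlan against curdlan (adjusted p = 0.00374). Foxo4 rose by 0.27 ± 0.0515 (adjusted p = 0.0445). Among these related calls against curdlan, that of Flcn passed without each array in turn, that of Foxo1 in 5 of 6 fits, those of Calcoco1 and Foxo3 in 2 and that of Clcn7 in 1, and the other 7 in none. The rise of Foxo1 with curdlan against control had an adjusted p between 0.0789 and 0.138 without any 1 array. Ddit4, an inhibitor of mTORC1 with a much larger response, read 10.22 and 10.24 with R406 plus curdlan, 7.83 and 7.59 with curdlan, and 11.13 and 11.23 in control arrays. Unlike the 13 risers, whose R406 plus curdlan arrays were above both other groups, Ddit4 lay between them with R406 plus curdlan, at a change of -0.95 ± 0.0911 against control (adjusted p = 0.0184).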

How the data were processed

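RBL-2H3 total RNA was biotin-labelled by a whole-transcript kit, per the labels' protocols, and hybridised to 6 Affymetrix arrays. The authors deposited log2 signals. Per the submitters' processing notes they used Affymetrix Expression Console, whose version and settings were not given in the sources used here, nor was a genome build. The log2 base was taken from the values, which ran from 1.659 to 14.41. No detection call was used, so changes of dim genes may be understated. The number of arrays limits precision.

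Of 29214 probe sets, 15310 had 1 symbol, 323 several and 13581 none in the platform annotation. 0 columns belonged to other samples. All probe sets and 6 arrays were fitted in limma 3.58.1 (R 4.3.3, lmFit, eBayes) with 3 groups, 3 residual and 2.16 prior degrees of freedom. Adjusted p-values are Benjamini-Hochberg over all probe sets, 2-sided, and reflect only array-to-array spread, possibly technical. An exact permutation test of 2 against 2 arrays cannot go below p = 0.333. Arrays of 1 group correlated at 0.9975 to 0.9981 and no array was duplicated (at most 39 identical values). The fit was tested on simulated data.

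The members and lists were chosen with earlier results of these data known. Called members are given by array and other members by change, with the uncalled Atg13, Becn1 and Map1lc3a also given by array. From each related list up to 4 called genes per direction are given, besides Mtor, Ddit4, Foxo1 and Foxo3. The alternatives were quantile normalization, median centring, a signal filter, named probe sets only, a variance trend, 4-array fits, the replicate number as a block, gene means, an adjusted p under 0.01 and leaving out each array.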

Additional observations from a re-analysis of the deposited data

How the results depend on the processing

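No called change reversed under any alternative run, and for groups without overlap leaving out 1 array could not have reversed it. The main counts of called autophagy genes were 14 with R406 plus curdlan against curdlan, 9 with R406 plus curdlan against control and 1 with curdlan against control. Against curdlan the count was between 10 and 16 under the other settings except at an adjusted p under 0.01, where it was 7. Calls over all features moved with these counts, so the range does not describe the members alone. The strict threshold called 21.9% of members against 1.92% of all features. The count was 16 with a variance trend (50% against 12.9%) and 15 of 30 with the signal filter (50% against 25.4%). The count was 15 in the fit of named probe sets (46.9% against 13.5%) and 10 in the fit of 4 arrays (31.2% against 4.22%). Against control it was 14 of 30 among probe sets above the median signal (46.7%, against 15.6% of all features in that fit), 14 among named probe sets (43.8% against 7.12%), 15 with a variance trend (46.9% against 8.01%), 4 in the fit of 4 arrays (12.5% against 0.623%), and 1 at an adjusted p under 0.01 (3.12% against 0.226%). With curdlan against control those 5 settings gave 6 (20% against 10.8%), 3 (9.38% against 4.36%), 7 (21.9% against 5.33%), 0 and 0 (0.233% and 0.267% of all features). The 7 genes with a variance trend were 3 higher (Tp53inp1, Atg16l1, Gabarapl1) and 4 lower (Atg14, Atg12, Nbr1, Wdr45). Leaving out any 1 array lowered the count in all 3 comparisons, and calls over all probe sets shrank as well. The 1 call with curdlan against control was lost each time. With the replicate number as a block the counts were 10 (31.2% against 3.86% of all features), 0 (0.212% of all features) and 0 (0.349%). Same-numbered arrays did not deviate together consistently (correlations of 0.113, -0.005 and -0.115 between groups). The sample titles do not say whether same-numbered arrays were prepared together, and these correlations cannot settle it. Whether the block belongs in the fit is therefore not known. Only a called result can lose its call, and most calls of single members were lost when 1 array was left out. Under the other settings, 43 single-gene values lost their call, 35 gained one and 780 stayed called or uncalled as before. The cause was not tested.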
